A study of Rattus norvegicus with 54 samples.

Results

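The genes described are Postn, Cilp, Thy1, Timp1, Eln, Dcn, Tcf21 and Igf1, 8 genes of a table that held the mRNA levels of 10249 other genes in rat hearts. They were taken by symbol as genes of fibroblasts and of the matrix that activated fibroblasts lay down, and they were named because earlier results of these same data had shown them to differ between feeding groups. The group values of the 8 genes are therefore given as a description, with no p, and counts of those that pass the rule used in the study are printed for reference alone. All 8 rows were in the table, and no rat had a value of 0 for any of them.

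The study asked how shift work, and the withholding of food during it, changes the rat heart. Male Wistar rats, 7 to 8 weeks old and housed one to a cage under 12 h of light and 12 h of dark, were followed for 5 weeks. Control rats (C) were left undisturbed and ate at any time. Shift work rats (W) spent the working hours of weekdays, which fall in the rest phase of a rat, in a slowly turning drum and could eat at any time. Rats of the restricted group (WRF) did the same work and had food only outside the working hours. All rats were killed on a day without work, 3 rats per group at each of ZT1, 5, 9, 13, 17 and 21, where ZT counts hours from lights on. RNA came from crushed whole hearts, atria and ventricles included, so each value is a mean over every cell type in the piece that was sampled, and more cells of a type cannot be told apart from more RNA per cell. Each group of 18 rats was divided by rat number into 3 series of 6, each with 1 rat of each time, and the labels do not say what the series stand for. Values are fpkm, which scale the fragments of a gene to the length of its transcript and to the mapped fragments of the library, so levels can be compared between genes. Between rats the summed fpkm of all genes ran from 373115 to 749554 (group medians 478799 for C, 505910 for W and 572371 for WRF), so differences are also given after rescaling where that changes them. The table holds no fragment counts.

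Cardiac fibroblasts keep up the collagen and elastin network around the muscle cells. When the wall of the heart is stretched or injured they become activated, divide, and secrete more matrix together with matricellular proteins, which sit in the matrix and tune cell signals rather than carry load. Postn (periostin) and Cilp (cartilage intermediate layer protein) are matricellular genes that are low in the resting heart and high in activated fibroblasts, and Thy1 is a surface glycoprotein used to sort fibroblasts. Timp1 encodes an inhibitor of matrix metalloproteinases. Eln encodes elastin, the core of elastic fibres, and Dcn encodes decorin, a small proteoglycan that binds collagen fibrils and TGF-beta. Tcf21 is a transcription factor of resting cardiac fibroblasts, and Igf1 is the ligand of the insulin-like growth factor receptor.

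The sequences just before the annotated starts of 3 of the genes are shown here because these 3 genes belong to the activated state. RefSeq held such a sequence for 5 of the 8 genes (Postn, Cilp, Timp1, Tcf21 and Igf1) in its GRCr8 build, a later build than the one the expression values were made on. The 250 bases before each start were searched on both strands for 7 motifs: TGANTCA, bound by AP-1 factors, CAGCTG, an E-box of tissue factors, CACGTG, the E-box of the clock activators, TATAAA, the TATA box, GGGCGG, the GC box, CCGGAA, the core of ETS sites, and CAGACA, the SMAD box. No pair of these motifs overlapped in the 5 sequences. Matches are in capitals, and each line runs 5′ to 3′ in the direction of transcription.
Postn, chr2:140677811-140678060, plus strand: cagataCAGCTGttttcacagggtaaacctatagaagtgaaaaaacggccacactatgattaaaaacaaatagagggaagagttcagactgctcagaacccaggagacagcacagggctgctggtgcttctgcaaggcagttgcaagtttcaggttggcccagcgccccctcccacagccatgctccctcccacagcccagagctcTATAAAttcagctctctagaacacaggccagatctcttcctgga
Cilp, chr8:74672198-74672447, plus strand: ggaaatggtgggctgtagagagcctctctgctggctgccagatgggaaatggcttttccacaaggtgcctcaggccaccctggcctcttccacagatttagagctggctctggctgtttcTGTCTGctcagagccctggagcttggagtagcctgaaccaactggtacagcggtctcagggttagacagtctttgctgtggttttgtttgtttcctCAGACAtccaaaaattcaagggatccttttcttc
Timp1, chrX:3771123-3771372, minus strand: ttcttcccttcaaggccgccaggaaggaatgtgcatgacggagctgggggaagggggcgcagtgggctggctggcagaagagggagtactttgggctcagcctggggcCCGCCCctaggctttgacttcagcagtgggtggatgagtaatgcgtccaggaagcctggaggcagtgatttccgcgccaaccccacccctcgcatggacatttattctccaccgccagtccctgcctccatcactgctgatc
The Postn window held a CAGCTG E-box and, 44 to 39 bases before the start, a TATA box, which were present in 12% and 12.9% of the 33469 promoters searched in the same way. The Cilp window held 2 SMAD boxes, 1 on each strand, a motif found in 17.2% of promoters. The Timp1 window held 1 GC box on the minus strand (30.5% of promoters). The letters CCGGAA of the ETS core (12.6%) were found in Tcf21 alone among the 5, and TGANTCA (6.34%) and CACGTG (5.59%) in none. Only exact matches to the searched letters were counted, so sites of the same factors with other letters would be missed. No motif was shared by 2 of the 5 genes in these windows.

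Before the results, 3 libraries and 1 feature of the dissection need to be stated. In WRF51, Ckm, the muscle creatine kinase, was at 31.5 fpkm where the WRF median was 1633, and the lung gene Ager was at 1419 fpkm. In WRF62 the T cell gene Cd3e was at 106 fpkm (WRF median 1.61) and Ckm at 170, and in W21 the liver gene Alb was at 1027 fpkm (W median 9.01). Values that rest on them are also given without WRF51, WRF62 and W21. Myl7, the light chain of atrial myosin, ran from 2.29 to 16085 fpkm in C (median 16.5), from 2.31 to 20489 in W (median 14.1) and from 3.37 to 23938 in WRF (median 386). It was over 100 fpkm in 6 C, 7 W and 9 WRF rats. Within groups it moved with the series, with 6 of 6 rats over this limit in series WRF62 to WRF46 and 0 of 6 in each of series WRF1 to WRF6, W33 to W38 and C33 to C38. The limit falls between rats that lie close, since the nearest were WRF5 at 97.0 fpkm and a C rat at 143. Fibroblast markers were present in every group, and the summed level of 16 other resident fibroblast genes had medians of 2305 fpkm in C, 2377 in W and 3308 in WRF, with ranges that overlapped. Mgp alone, a gene of that sum, had medians of 840 fpkm in C, 923 in W and 1376 in WRF, so it weighs heavily there.

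All 8 genes had a higher median in WRF than in C rats, and the ranges of the groups overlapped for every one of them. By the rule used in the study, a Kruskal-Wallis test adjusted over all genes followed by Mann-Whitney tests, 4 of the 8 (Postn, Cilp, Thy1 and Eln) stood above C in WRF, beside 8.13% of all genes, and the same 4 stood above W, beside 8.26%. In W against C 0 of the 8 were called, beside 0.234% of genes called higher and 0.195% called lower. The contrasts share their WRF rats, and the genes were chosen on them, so nothing is read from the counts. Over all genes the mean log2 level was 0.08 higher in WRF than in C at the median gene, and the 8 differences below are larger than that for 7 genes.

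**Figure D1:**
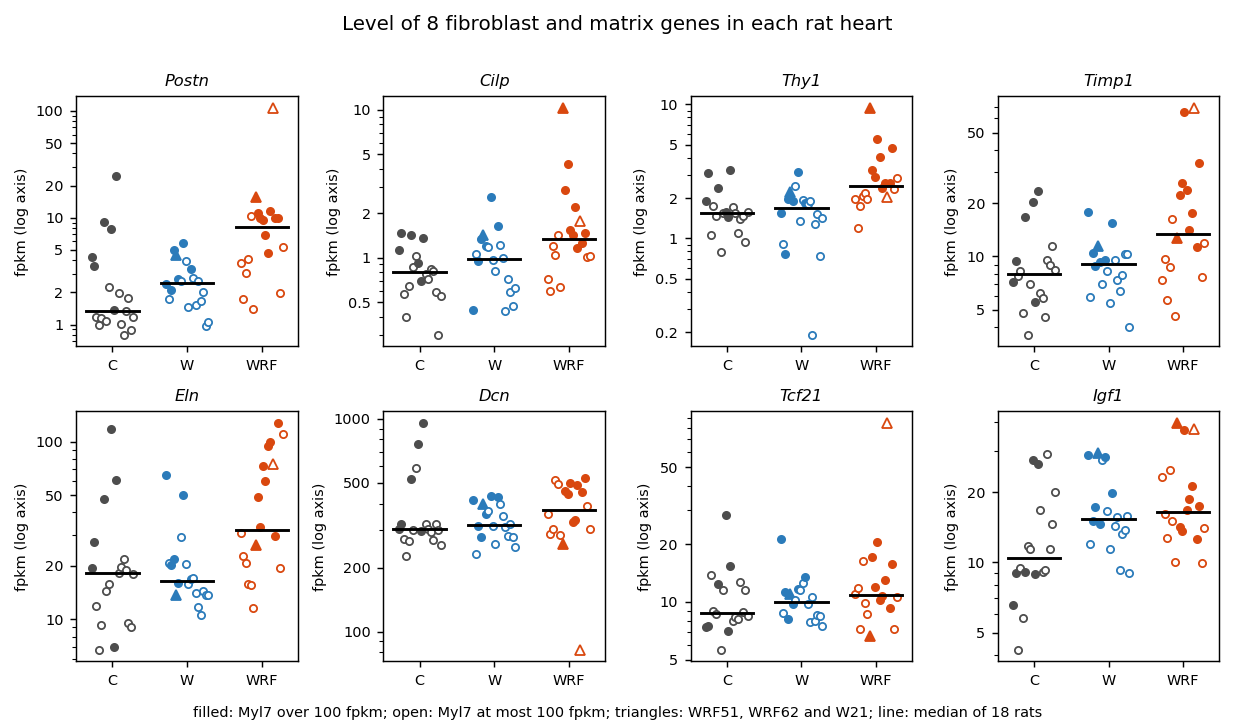
Level of each of the 8 genes in fpkm, on a log axis, in every rat of the C, W and WRF groups. The line is the median of 18 rats, filled points are rats with over 100 fpkm of the atrial gene Myl7, and triangles are WRF51, WRF62 and W21. The groups overlap in every panel, and filled points tend to lie above open points of the same group for Postn, Timp1 and Eln.

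Postn showed the widest separation. It ran from 0.799 to 24.5 fpkm in C with a median of 1.35, from 0.968 to 5.74 in W with a median of 2.47, and from 1.38 to 107 in WRF with a median of 8.25. All 18 WRF rats and 16 of 18 W rats lay above the C median, yet only WRF51 lay above the highest C rat, C29, and 0 of the W rats did. The ratio of medians was 6.10 for WRF to C, 1.83 for W to C and 3.34 for WRF to W. On the scale of log2(fpkm + 1) the mean differed by 1.29 ± 0.32 (SE) between WRF and C and by 0.06 ± 0.32 between W and C. The W median was the higher at 6 of 6 times and the WRF median at 5 of 6, with ZT21 as the exception (1.95 fpkm in WRF and 1.99 in C).

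Cilp was the lowest of the 8 genes. It ran from 0.301 to 1.46 fpkm in C (median 0.796), from 0.437 to 2.58 in W (median 0.983) and from 0.591 to 10.3 in WRF (median 1.34). The highest WRF value was that of WRF62, and 7 of 18 WRF rats and 2 of 18 W rats exceeded every C rat. The WRF median was 1.68 times and the W median 1.24 times that of C, and the WRF median was the higher at all 6 times. Mean log2 levels differed by 0.53 ± 0.15 for WRF against C and by 0.13 ± 0.15 for W against C.

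Thy1 separated WRF rats from C rats by a smaller ratio but with few exceptions. Values were 0.787 to 3.24 fpkm in C (median 1.55), 0.191 to 3.15 in W (median 1.68) and 1.20 to 9.45 in WRF (median 2.48). The highest WRF value was that of WRF62, the library high in the T cell gene Cd3e, and without WRF51 and WRF62 the highest was 5.52. In WRF 17 of 18 rats lay above the C median and 4 above the highest C rat, while 10 of 18 W rats lay above the C median and 3 below the lowest C rat. The ratio of medians was 1.6 for WRF to C and 1.08 for W to C, and the mean log2 differences were 0.55 ± 0.14 and -0.05 ± 0.14.

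Timp1, the protease inhibitor of the set, ran from 3.61 to 23.5 fpkm in C (median 7.99), from 4.02 to 17.7 in W (median 9.05) and from 4.64 to 69.0 in WRF (median 13.4). The WRF group was spread over a 14.9-fold range, and its 5 rats above the highest C rat included WRF51. Medians stood in a ratio of 1.67 for WRF to C and 1.13 for W to C. The mean log2 difference of WRF from C was 0.81 ± 0.24.

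Of the structural genes, Eln ran from 6.73 to 118 fpkm in C (median 18.1), from 10.5 to 65.2 in W (median 16.5) and from 11.6 to 128 in WRF (median 31.8). It was the 1 gene of the 8 with a lower median in W than in C, at a ratio of 0.909, and its WRF median was 1.76 times that of C and higher at all 6 times. In WRF 15 of 18 rats lay above the C median, but 1 of 18 lay above C27, the highest C rat. The mean log2 difference of WRF from C was 1.05 ± 0.30.

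Dcn was by far the most abundant of the 8, at 227 to 959 fpkm in C (median 302), 232 to 433 in W (median 318) and 82.1 to 527 in WRF (median 373). Its median was 1.23 times higher in WRF than in C, whereas the mean log2 levels differed by 0.02 ± 0.17. The lowest WRF rat was WRF51, and the highest C rats were C29 and C27 at 959 and 760 fpkm. None of the WRF rats exceeded the highest C rat, C29. Without the 3 libraries named above the mean log2 difference was 0.18 ± 0.14, and with the libraries rescaled by their median ratio it was -0.08 ± 0.17. Without series C33 to C38 it was -0.12, so its direction depended on the scaling and on the rats kept.

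Tcf21, the factor of resting fibroblasts, ran from 5.64 to 28.3 fpkm in C (median 8.79), from 7.51 to 21.3 in W (median 10) and from 6.64 to 85.2 in WRF (median 10.9). The ratio of medians was 1.24 for WRF to C and 1.14 for W to C. WRF51 alone lay above the highest C rat, and leaving it out brought the mean log2 difference of WRF from C from 0.30 ± 0.18 to 0.15 ± 0.14.

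Igf1 was the 1 gene whose mean log2 level in W stood more than 0.2 above that of C. It ran from 4.21 to 29.2 fpkm in C (median 10.4), from 9.02 to 29.6 in W (median 15.4) and from 9.96 to 39.8 in WRF (median 16.5), and 16 of 18 rats of each shift work group lay above the C median. The ratio of medians was 1.48 for W to C, 1.58 for WRF to C and 1.07 for WRF to W. Mean log2 levels differed from C by 0.44 ± 0.20 in W and 0.58 ± 0.20 in WRF. The lowest median of any series was that of C17 to C22 at 7.79 fpkm, and without that series the WRF difference from C was 0.26 and the W difference 0.11.

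Ordered by level, the groups ran C, W, WRF by median for 7 genes and W, C, WRF for Eln, and the W and C ranges overlapped for each gene. The spread within a group differed from gene to gene. The coefficient of variation of Postn was 155% in C, 51% in W and 189% in WRF, and 56.2% in WRF without WRF51 and WRF62. Dcn had the smallest, at 19.2% in W and 22.1% in WRF without the same 2 libraries, but 51.9% in C. Without WRF51, WRF62 and W21, 2 of the 8 genes (Postn and Thy1) were called higher in WRF than in C, beside 4.71% of all genes, and the mean log2 differences of these were 0.99 ± 0.27 and 0.48 ± 0.13. With median-of-ratios scaling Postn and Thy1 were again the 2 called, beside 2.17% of genes called higher and 2.06% called lower.

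The level of several of the 8 genes moved with Myl7 among rats of one group. In a limma fit over all genes with the groups and Myl7 as terms, 7 of the 8 rose with Myl7 at an adjusted p of at most 0.05, beside 33% of all genes, and without WRF51, WRF62 and W21 all 8 did, beside 48.7%. The steepest was Eln, at 0.15 ± 0.02 log2 units per log2 unit of Myl7 (adjusted p 1.89e-06), followed by Postn at 0.13 ± 0.03 (adjusted p 0.00011) and Timp1 at 0.11 ± 0.02 (adjusted p 2.99e-05). Tcf21 was the exception in the fit of all 54 rats (0.03 ± 0.02, adjusted p 0.136). Rats lay mostly at the ends of the Myl7 range, so these slopes largely compare samples rich and poor in Myl7. In C, Postn had a median of 6.04 fpkm in the 6 rats over 100 fpkm of Myl7 and of 1.17 in the other 12. Eln stood at 37.5 against 15.1 fpkm in the same rats, and Dcn at 420 against 296. Igf1 went the other way in C, at 9.08 against 11.4 fpkm. The same comparison in WRF, without WRF51 and WRF62, gave 9.92 against 3.43 fpkm for Postn, 22.9 against 8.18 for Timp1 and 66.6 against 20.1 for Eln.

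Among rats with at most 100 fpkm of Myl7, and without WRF51, 12 C, 11 W and 8 WRF rats were left. Their Myl7 was not equal between groups, since it reached 21.3 fpkm in C, 29.1 in W and 97.0 in WRF (WRF5, with WRF55 at 90.6). WRF5 also had the highest Postn of these rats, at 10.4 fpkm. All 8 WRF rats lay above the C median of Postn and 5 of 8 above the highest C rat among these 12, and the medians were 1.17 fpkm in C, 1.73 in W and 3.43 in WRF. For Thy1 6 of 8 WRF rats lay above the highest of these C rats, with medians of 1.47 in C and 2.02 in WRF. Timp1 had medians of 7.35 in C and 8.18 in WRF, a ratio of 1.11, where the ratio over all rats was 1.67. Eln kept a ratio of 1.33, Cilp 1.5 and Igf1 1.27. In these rats 0 of the 8 genes were called in WRF against C, as were 0% of all genes with this smaller number of rats. With Myl7 as a covariate and without the 3 libraries, the mean log2 difference of WRF from C was 0.70 ± 0.19 for Postn, 0.70 ± 0.22 for Eln, 0.46 ± 0.17 for Timp1, 0.38 ± 0.11 for Thy1, 0.30 ± 0.10 for Cilp and 0.36 ± 0.18 for Igf1. For Dcn and Tcf21 it was 0.06 ± 0.12 and 0.09 ± 0.13. The part of Myl7, and of the atrial tissue it marks, in the group differences was not tested beyond these values.

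**Figure D2:**
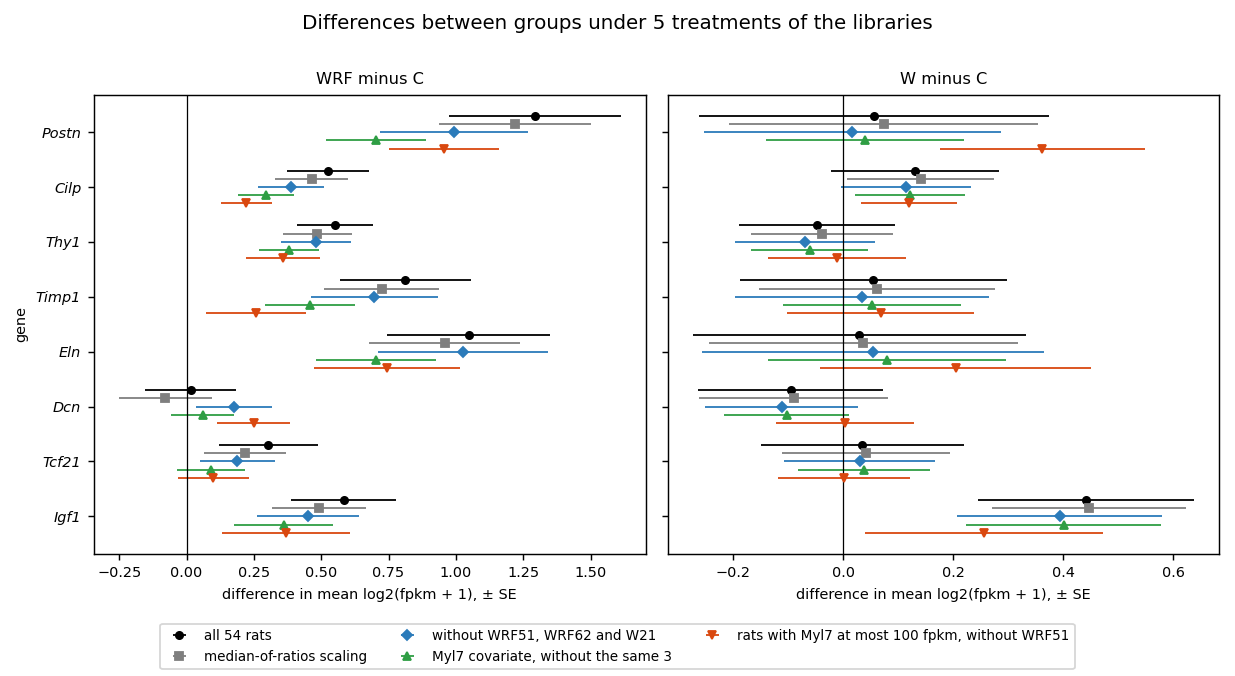
Difference in mean log2(fpkm + 1) of each gene, WRF minus C on the left and W minus C on the right, with bars of 1 SE from the limma fit, under 5 treatments of the libraries. Postn and Eln stay the farthest from 0 in WRF under all 5, Timp1 falls from 0.81 to 0.26 in rats poor in Myl7, and Dcn lies on both sides of 0.

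The 3 series of a group were compared next. In WRF the medians of series WRF1 to WRF6, which held no rat over 100 fpkm of Myl7, were the lowest of the 3 for all 8 genes, at 3.43 fpkm for Postn, 8.06 for Timp1 and 18.3 for Eln. Series WRF62 to WRF46 stood at 9.77, 22.9 and 54.3 fpkm for the same genes, and WRF50 to WRF55 at 9.93, 14.7 and 86.9. Set against the 3 series of C, which restates by series the contrast the genes were chosen on, every WRF series had the higher median for Postn, Thy1, Tcf21 and Igf1 (9 of 9 pairs), and 8 of 9 pairs did for Timp1 and Eln, 7 of 9 for Cilp and 6 of 9 for Dcn. Differences among the series of one group took no part in the choice. In a limma F test among them, 1 of 8 genes passed an adjusted p of 0.05 in C (Igf1, adjusted p 0.0187), beside 33.2% of all genes. In W 1 of 8 passed (Cilp, adjusted p 0.0488, beside 20.4%) and in WRF 0 of 8 did, beside 1.95%. At an unadjusted p under 0.05 the counts were 2 in C, 5 in W and 4 in WRF, beside 42.7%, 36.3% and 19.6% of all genes. Without WRF51 and WRF62, Cilp, Thy1, Timp1 and Eln passed in WRF, beside 26% of all genes, with adjusted p from 0.0109 to 0.0193, and without W21 Cilp no longer passed in W (adjusted p 0.0667, beside 12.6%). With Myl7 in the fit 1 gene passed in C, which was Igf1 again at an adjusted p of 0.01, and 0 in W and WRF, beside 27.2%, 1.88% and 0% of all genes. Among rats poor in Myl7 0 of 8 passed in C, beside 13.4%, and in W, beside 0.0292%, where 1 series was down to a single rat, W18, which was assumed to vary like the others. The WRF series were not compared there, since 1 of them had no such rat.

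**Figure D3:**
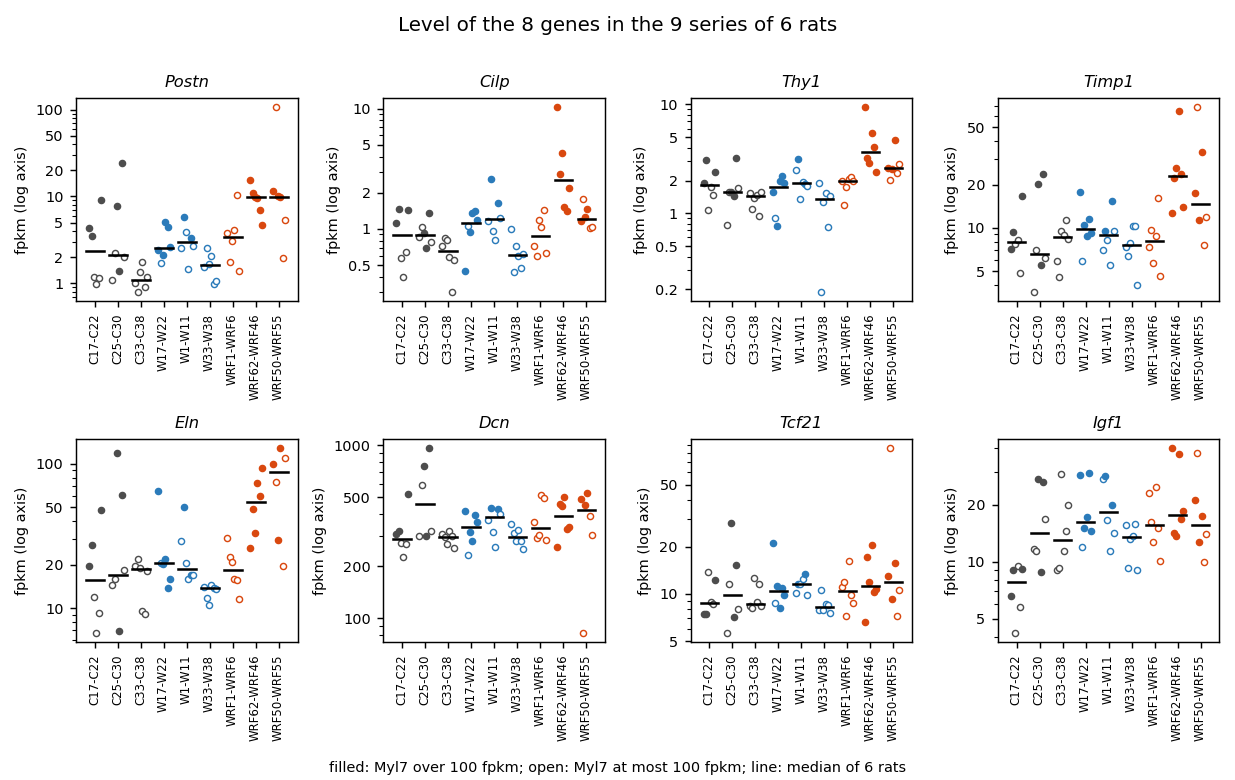
Level of each gene in fpkm, on a log axis, in the 9 series of 6 rats, in the order C, W and WRF. The line is the median of 6 rats and filled points are rats with over 100 fpkm of Myl7. The first WRF series, with open points only, has the lowest median of the WRF series for all 8 genes.

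Time of day was tested on its own, as it took no part in the choice of the genes. None of the 8 passed the test for a rhythm in any group, by harmonic regression with a period of 24 h. At q under 0.05 the count was 0 of 8 in C, W and WRF, beside 0.848%, 0% and 0.039% of all genes, and at an unadjusted p under 0.05 it was also 0 of 8 in each, beside 5.91%, 3.05% and 6.35%. Unadjusted p ran from 0.197 to 0.939 in C, from 0.156 to 0.975 in W and from 0.0635 to 0.989 in WRF. The lowest was that of Dcn in WRF, with a fitted peak near ZT15.9 and an amplitude of 0.236 of its mean. Dcn medians in WRF were 451 and 501 fpkm at ZT13 and ZT17 against 289 to 335 at the other 4 times. Without WRF51 and WRF62 its p was 0.0177 and its q 0.568, and with the times that the other labels of 12 WRF rats give it was 0.0817.

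Light and dark hours were also compared. Between 9 rats of ZT1, 5 and 9 and 9 rats of ZT13, 17 and 21, 0 of the 8 genes differed in any group at an adjusted p of 0.05, beside 0.127% of all genes in C, 0% in W and 0.00975% in WRF, and at an unadjusted p under 0.05 only Dcn in WRF did, beside 3.32% of all genes in C, 0.468% in W and 16.2% in WRF. Dcn was 0.55 ± 0.23 log2 units lower in light hours there (unadjusted p 0.0214, adjusted p 0.293), and 0.27 ± 0.21 lower without WRF51 and WRF62 (unadjusted p 0.206). With the times that the other labels of 12 WRF rats give, Dcn was 0.34 ± 0.24 lower (limma, unadjusted p 0.169). With Myl7 as a covariate Dcn was 0.49 ± 0.20 lower in light hours (unadjusted p 0.0188) and Eln 0.74 ± 0.31 higher (unadjusted p 0.0194), beside 24.4% of all genes, and neither passed after adjustment (0.169 for both). The covariate fit was not run with the other labels. Without the covariate Eln in WRF was 0.59 ± 0.42 higher in light hours by the titles and 0.15 ± 0.43 lower by the other labels. A test of the difference in rhythm itself passed for 0 of the 8 genes between any pair of groups, beside 0% of all genes, and 0 of 8 were under an unadjusted p of 0.05, beside 2.42% of all genes for WRF against C, 5.27% for WRF against W and 3.63% for W against C. The unadjusted p ran from 0.164 for Postn, WRF against C, to 0.990 for Eln, W against C. Without WRF51, WRF62 and W21 the same limma F test gave Cilp an unadjusted p of 0.0463 for WRF against C, beside 1.92% of all genes under 0.05. It gave Dcn 0.00895 for WRF against W, beside 7.5%. Neither passed after adjustment (adjusted p 0.999 and 0.646). The smallest daily change that 3 rats per time could show was not tested.

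**Figure D4:**
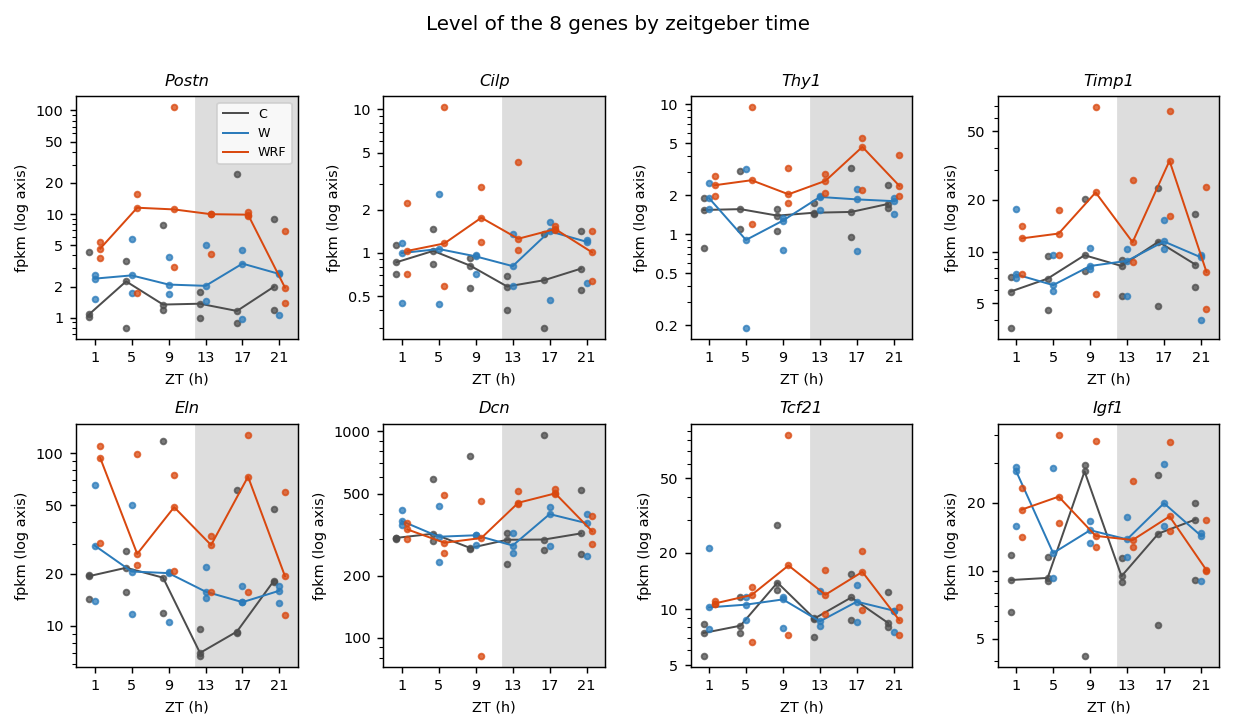
Level of each gene in fpkm, on a log axis, against ZT in h, with the 3 rats of each time as points and their median as a line for C, W and WRF; the grey area is the dark phase. The points of the 3 groups overlap at most times, and the highest Dcn medians in WRF are those of ZT13 and ZT17.

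Rats that were high for 1 of the 8 genes were mostly high for others. C29 was among the 3 highest of the 18 C rats for all 8 genes, C27 for 6 and C22 for 5, and these 3 held 5704, 16085 and 5988 fpkm of Myl7. In W the rats were W3 (6 genes), W17 and W21 (5 each), and in WRF they were WRF44 (5 genes), with WRF51, WRF53 and WRF62 at 4 each. At the low end, W38 and WRF6 were among the 3 lowest of their groups for 6 genes each, at 2.31 and 9.36 fpkm of Myl7. Of these rats only WRF51, W38 and WRF6 had less than 100 fpkm of it.

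Correlations within groups were computed for the 28 pairs of genes, 84 in all, in 18 C rats, 17 W rats without W21 and 16 WRF rats without WRF51 and WRF62. Pearson r was above 0 for 28, 27 and 27 pairs, with medians of 0.585, 0.544 and 0.482. Both r and Spearman rho passed an adjusted permutation p of 0.05 in 6, 6 and 9 pairs. Pairs of other genes were not counted in the same way, so these counts cannot be read as particular to the 8 genes. Postn and Cilp was the 1 pair that passed in all 3 groups, where r was 0.613, 0.766 and 0.527 in C, W and WRF and rho was 0.705, 0.664 and 0.685. The adjusted p of r ran from 0.00773 to 0.0465 and that of rho from 0.0181 to 0.0233 (permutation tests). Without the 2 rats farthest from the median of Postn its r was 0.529, 0.509 and 0.535, and in rats poor in Myl7 it was 0.487 (n = 12), 0.410 (n = 11) and 0.764 (n = 8). In rats rich in Myl7 it was 0.424 (n = 6), 0.810 (n = 6) and 0.044 (n = 8). Its r within single series ran from 0.005 to 0.885 in C, from -0.20 to 0.852 in W and from 0.440 to 0.817 in WRF.

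The highest r of all was that of Thy1 and Timp1 in WRF, at 0.899 (rho 0.882, adjusted permutation p 0.00042 and 0.00336). Without the 2 rats farthest from the median of Thy1 it was 0.762, and in the 8 WRF rats poor in Myl7 it was 0.302. Postn and Dcn stood at 0.875 in C, 0.486 in W and 0.744 in WRF, and r did not pass in W (adjusted permutation p 0.0833). In the rats poor in Myl7 their r was 0.721, 0.519 and 0.615 and rho was 0.434, 0.627 and 0.643. In the rats rich in it their r was 0.890, 0.056 and 0.828. Over the 28 pairs the median r in rats poor in Myl7 was 0.127 in C, 0.385 in W and 0.268 in WRF, and in rats rich in it 0.65, 0.475 and 0.284 (n = 6, 6 and 8). Pairs ran together more weakly among C rats poor in Myl7 than over all C rats, and this difference was not tested.

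**Figure D5:**
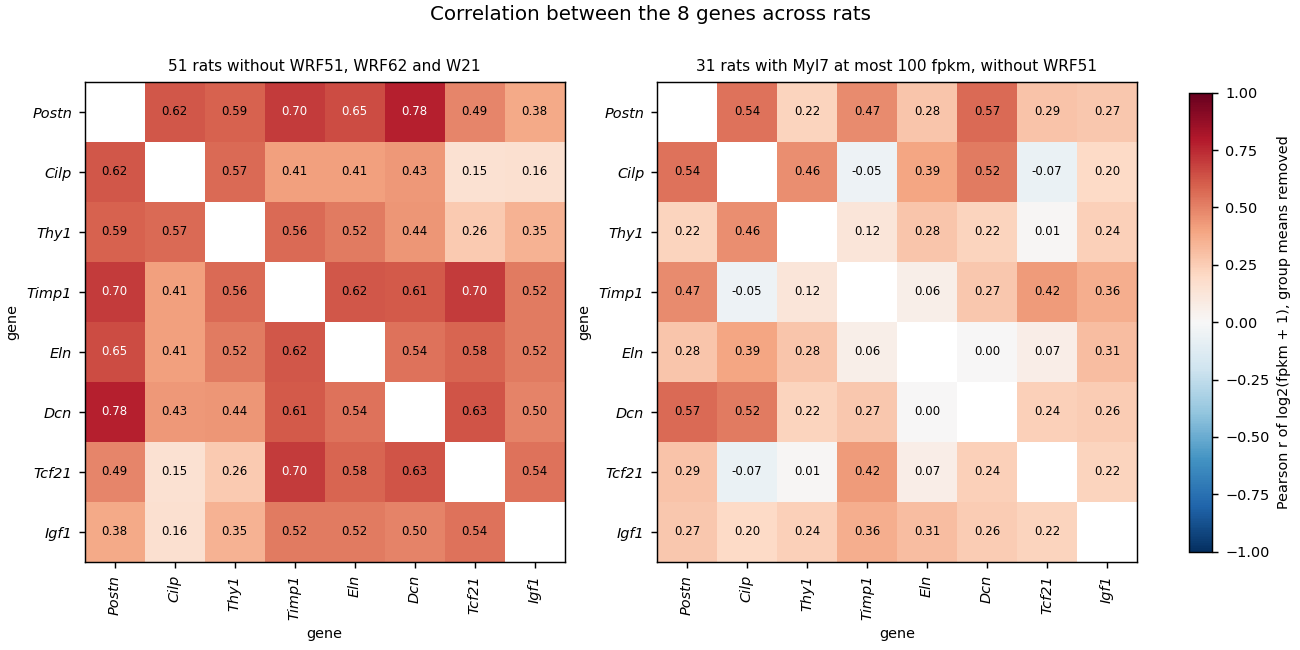
Pearson r of log2(fpkm + 1), with the group means removed, between the 8 genes across 51 rats without WRF51, WRF62 and W21 (left) and across 31 rats with at most 100 fpkm of Myl7 and without WRF51 (right). Postn and Dcn have the highest r on the left (0.78) and on the right (0.57).

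By the same measure over 51 rats, the genes most like each of the 8 were found among all genes whose mean reached 1 fpkm. For Postn they were Prelp, a proteoglycan of the Dcn family, Fbln5, an elastic fibre protein, and Ntrk2 (r 0.889, 0.889 and 0.886, and 0.752, 0.756 and 0.743 in the 31 rats poor in Myl7). Thy1 had Col1a1, Col1a2 and Mfap4, which encode the chains of type I collagen and a microfibril protein (r 0.731, 0.727 and 0.725). Timp1 had Htra1, P3h3 and Serpinf1 (0.890, 0.879 and 0.872), and Eln had Fzd2, Col18a1 and Tgfb3 (0.877, 0.862 and 0.861). Those of Cilp were weaker, with Dchs1, Cmklr1 and Thbs4 at 0.663, 0.663 and 0.656. Dcn had Selenop, Pdgfra and Rnase4 (0.913, 0.897 and 0.896), of which Pdgfra is the receptor that marks resting fibroblasts. The genes nearest Tcf21 and Igf1 were of other kinds, namely Hdac1, Selenos and Gpx8 for Tcf21 (0.843, 0.828 and 0.822) and Sec62, Ccdc34 and Zfp148 for Igf1 (0.835, 0.814 and 0.747). For comparison, r with Myl7 was highest for Postn at 0.754 and lowest for Igf1 at 0.342.

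Genes that work with the 8 were counted from 7 lists, which together held 121 genes of the table beside the members. By the same rule 1 of the 121 was called higher in WRF than in C and 1 lower, beside 8.13% and 0.721% of all genes, and 0 in W against C, beside 0.234% and 0.195%. The one that rose was Igfbp6, a binding protein of insulin-like growth factors, with medians of 29.2 fpkm in C, 30.1 in W and 50.8 in WRF (adjusted Kruskal-Wallis p 0.0386), and the one that fell was Adamts9, a protease of proteoglycans, at 2.29, 2.12 and 1.67 fpkm (adjusted p 0.0354). Neither was called without WRF51, WRF62 and W21. By limma on log2(fpkm + 1) the counts were 9 higher and 2 lower, beside 11.3% and 1.68%, and among the 82 genes of the lists whose mean reached 5 fpkm they were 6 and 0, beside 15.3% and 1.14% of the genes tested there.

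In the lists nearest to Postn and Cilp, 0 of 16 other matricellular genes were called, and the median log2 difference of WRF from C over them was 0.28. Smoc2, Nov, Mfge8 and Thbs4 were its leading genes, with Thbs4 at medians of 0.346, 0.414 and 2.09 fpkm in C, W and WRF (adjusted p 0.107). Of 16 elastic fibre genes 0 were called (median 0.28), and the leading ones were Loxl1, a crosslinking enzyme, at 10, 9.74 and 16.6 fpkm (adjusted p 0.0508), and Ltbp2, Mfap5 and Mfap4. None of 8 small leucine-rich proteoglycans, the family of Dcn, was called (median 0.24), with Fmod at 2.19, 2.51 and 8.24 fpkm (adjusted p 0.0697) ahead of Prelp, Lum and Bgn. Of 24 metalloproteinases and inhibitors, the targets and relatives of Timp1, 1 was called lower, the Adamts9 named above (median 0.06), and Timp2 stood at 66.1, 70.3 and 88.7 fpkm (adjusted p 0.0736). Fibrillar collagens and their processing enzymes gave 0 of 20 (median 0.14), with Col1a1 at 43.8, 45.2 and 83.2 fpkm (adjusted p 0.0659). TGF-beta signalling and its targets gave 0 of 20 (median 0.02), and there Ctgf stood at 17.5, 19.5 and 31.9 fpkm (adjusted p 0.229). In the axis of Igf1, 1 of 19 was called higher (median -0.15), which was Igfbp6, while Ghr, the growth hormone receptor, stood at 29.1, 26.5 and 19.7 fpkm (adjusted p 0.117). The median over all genes on the same scale was 0.08.

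Lists of cell type markers were set beside these. In WRF against C, 1 of 4 adipocyte genes was called higher (Cfd, at 6.66, 9.80 and 20.4 fpkm in C, W and WRF, called also without the 3 libraries) and 1 of 10 endothelial genes lower (Flt1, at 16.6, 18.5 and 12.7 fpkm, not called without them). None was called of 16 resident fibroblast, 12 activated fibroblast, 11 smooth muscle and pericyte, 5 valve, 7 mesothelial, 8 atrial and 11 ventricular cardiomyocyte, 12 macrophage, 9 T cell, 2 lung or 8 liver genes. Among genes whose mean reached 5 fpkm, however, 4 of 16 resident fibroblast genes were called higher, beside 15.3% of the genes tested there, as was 1 of 3 T cell genes, while 1 of 8 smooth muscle and 3 of 10 endothelial genes were called lower, beside 1.14%. With median-of-ratios scaling 3 endothelial genes, 1 mesothelial and 1 ventricular gene were called lower. The summed level of the 12 activated fibroblast genes ran from 36.6 to 759 fpkm in C, from 44.4 to 345 in W and from 47.9 to 859 in WRF, with medians of 72.9, 71.3 and 141. In rats poor in Myl7, without WRF51, these medians were 65.2, 62.9 and 77.0. Tagln alone, a gene of that sum, had medians of 26.7, 21.1 and 45.3 fpkm in C, W and WRF over all rats, so it weighs heavily there. The summed atrial level had medians of 343, 532 and 1403 fpkm, and the mesothelial one 20.2, 26.8 and 53.6. Mean log2 levels were higher in WRF than in C for 12 of 12 macrophage genes (median difference 0.49, summed medians 182, 202 and 277 fpkm), for 9 of 9 T cell genes (median 0.64), for 8 of 8 liver genes (median 0.83) and for 0 of 11 ventricular genes (median -0.37), beside 64.1% of all genes. The same count was 14 of 16 for resident fibroblast (median 0.32), 10 of 12 for activated fibroblast (0.36) and 6 of 7 for mesothelial genes (0.76). It was 5 of 5 for valve (0.26), 4 of 4 for adipocyte (1.49), 6 of 8 for atrial (0.97) and 2 of 2 for lung genes (0.66). For smooth muscle and pericyte genes it was 3 of 11 (-0.17), and for endothelial genes 3 of 10 (-0.12). These log2 differences include WRF51 and WRF62. Their summed levels were 18833 and 1210 fpkm for macrophage, 165 and 809 for T cell and 939 and 4353 for ventricular genes. Without WRF51, WRF62 and W21 the summed medians in C, W and WRF were 182, 220 and 268 fpkm for macrophage genes. For T cell genes they were 20.3, 23.5 and 25.9. For ventricular genes they were 44153, 45516 and 49212, and over all rats 44153, 45146 and 48640. The part of these cell types in the differences of the 8 genes was not tested.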

How the data were processed

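RNA-seq of whole hearts from 54 rats was used. The authors deposited 1 table of fpkm values, made with TopHat2 and Cufflinks on rn6 per the processing notes of the submitters (versions not given in the sources used here) and holding genes above 1 fpkm in at least 18 rats. All genes met this filter. The table holds no fragment counts and the sequencing depth of each library was not used here, so no counting error is given. Groups and times came from sample titles, and the times that other labels give for 12 WRF rats were an alternative. The 8 genes and all gene lists were chosen with earlier results of these data known, and named list genes are up to 4 per list with the smallest Kruskal-Wallis p. The 3 genes most like each member had the highest Pearson r of log2(fpkm + 1), group means removed, over 51 rats. Group tests were Kruskal-Wallis tests with Benjamini-Hochberg adjustment and 2-sided Mann-Whitney tests (scipy 1.17.1). The 2-sided limma tests (3.58.1) used log2(fpkm + 1), with p adjusted over all genes. Rhythm was fitted by harmonic regression on fpkm. Permutation tests drew 100000 resamples. Scripts were tested on simulated data. Each sample was a separate rat. Median-of-ratios scaling, other pseudocounts, filters and subsets of rats were tried as alternatives.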

Additional observations from a re-analysis of the deposited data

Results flagged for a closer look

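Within each of the 9 series of 6 rats, the highest or lowest rat was compared with its neighbour for each gene. In 11 of 72 sets 1 rat stood apart from the other 5 by more than Dixon's limit, which about 1 of 20 sets of normally distributed values pass. The fpkm values used here are skewed towards high ones and the sets share rats, so the count cannot be read against that share. Postn stood apart in C29 (24.5 fpkm, next 7.79), in WRF5 (10.4, next 4.11) and in WRF51 (107, next 11.5). Tcf21 did so in W17 (21.3 fpkm), W34 (10.6) and WRF51 (85.2). The others were Cilp in WRF62 (10.3 fpkm), Thy1 in WRF53 (4.70), Timp1 in WRF44 (65.4), Eln in W17 (65.2) and Dcn in C22 (521). C29, WRF44 and WRF53, like WRF5, were rats of ZT17 by their titles, though other labels give ZT13 for WRF44 and WRF53. Of the 9 rats concerned, 6 had over 100 fpkm of Myl7. For 0 of the 8 genes did the rhythm, or the difference between light and dark hours, differ between groups at an adjusted p of 0.05.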

How the results depend on the processing

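The difference of WRF from C in mean log2 level kept its sign under all 19 alternatives for Postn, Cilp, Thy1, Timp1, Eln, Tcf21 and Igf1, and under 13 of 19 for Dcn (-0.12 to 0.25). The genes were chosen on this contrast and the alternatives share rats, so nothing is read from the kept signs. Of all genes, 64.1% were above 0 in the main fit and 49.2% with median-of-ratios scaling. Postn ran from 0.70 to 1.73, Timp1 from 0.26 to 1.24 and Cilp from 0.20 to 0.86. For W against C the sign held under all 19 for Cilp and Igf1 alone. The number of genes with the higher mean in W than in C was 6, but 2 without series W17 to W22 and 3 without series W1 to W11. The number of the 8 genes called higher in WRF than in C was 4, but 2 with median-of-ratios scaling, 2 without WRF51, WRF62 and W21, 2 of the 6 whose mean reached 5 fpkm, and 0 among rats with at most 100 fpkm of Myl7, with or without WRF51. Scaling by median ratios also changed the split of all genes from 834 higher and 74 lower to 223 and 211. Of the 121 list genes, 1 was called higher and 1 lower, against 0 and 0 without the 3 libraries and in both sets poor in Myl7, 6 and 0 where the mean reached 5 fpkm, and 9 and 2 by limma. Among series, the genes passing in C fell from 1 to 0 in rats poor in Myl7. In W they fell from 1 to 0 in those rats (1 series then of a single rat), with Myl7 as a covariate and without W21, and in WRF they rose from 0 to 4 without WRF51 and WRF62. Rhythm, rhythm differences and light against dark stayed at 0 passing under every alternative run. The rat number as a replicate block, in 12 W and 12 C rats with shared numbers, left 0 list genes called with the block and 0 without it; deviations of same-numbered rats correlated at -0.185 to 0.647, 6 of 12 over 0.1, so the numbers were not taken to pair rats. The causes of these changes were not tested, and sets poor in Myl7 hold fewer rats. The small sets of rats and 3 rats per time limit what could be seen, and depth was not used. The Myl7 subset without WRF51, the covariate fits without the 3 libraries and those for light and dark hours were chosen after seeing the data.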
